A study of Mus musculus with 20 samples.

Results

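The ELAV family comprises 4 RNA-binding proteins encoded in mouse by Elavl1 (HuR), Elavl2 (HuB), Elavl3 (HuC) and Elavl4 (HuD), and these 4 gene symbols were looked up in every assay of the study. All 4 were among the 14924 genes counted by RNA-Seq and POL-Seq and among the 9621 genes counted by 3' end sequencing. Of the 1304 protein coding genes with a HuD binding window in CRAC, 1 was a family member, Elavl1. NSC-34, a mouse hybrid of neuroblastoma and embryonic spinal cord cells, was made to carry the tetracycline repressor (Trex cells). HuD cells carry in addition a lentiviral human HuD coding sequence with a His-HA tag under inducible control. The study names Trex cells as the control (CTRL) of CRAC, and the titles of the other assays say only CTRL cells. RNA-Seq of total RNA (TOT) and POL-Seq of polysomal RNA (POL) had 2 libraries per group, and 3' end sequencing and CRAC had 3 per group. In all assays but CRAC, HuD cells received 2 µg/ml tetracycline for 48 h, and the labels name no treatment for the CTRL cells. Differences due to tetracycline and due to HuD can therefore not be told apart in these assays. For CRAC, both lines received 10 µg/ml tetracycline for 24 h by the labels, while the main text of the study names another dose and time. The inducible sequence is human, and RNA-Seq and POL-Seq reads were counted on whole mouse genes. In these counts, reads of the transgene and of the mouse gene Elavl4 cannot be told apart. The 3' end counts are of reads near known mouse polyadenylation sites, and the cloned human sequence is a coding sequence. By the deposited coordinates on GRCm38, Elavl1 lies on chromosome 8 (4284782 to 4325100), Elavl2 on chromosome 4 (91250763 to 91400785), Elavl3 on chromosome 9 (22015005 to 22052023) and Elavl4 on chromosome 4 (110203722 to 110351909), all on the minus strand.

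ELAV proteins bind U-rich and AU-rich stretches of mRNAs through RNA recognition motifs and are known to act on splicing, polyadenylation, stability and translation. HuB, HuC and HuD make up the neuronal branch of the family, and HuR has no such restriction. Members of the family are also known to bind mRNAs of the family itself.

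The coding sequences of the family are alike but long identical stretches are few. In GENCODE vM21, the longest coding sequences of Elavl3 and Elavl4 were 80.8% identical over 1070 aligned nucleotides, and those of Elavl1 and Elavl3 were the least alike pair at 72.0%. Of the 6 pairs, Elavl3 and Elavl4 shared the longest identical run, 29 nt, and it is shown because it limits how long a coding read could match both genes without a difference.
Elavl3 and Elavl4: ttcggcttcgtcaccatgaccaactacga
The other pairs shared runs of 17 to 23 nt. Identity of the human transgene with the mouse genes was not computed.

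The bound window in Elavl1 and the other copies of its 7 letters in the 3' UTRs of the family are shown because they set the one site found in the family beside sequences without a listed site. Each is printed 5' to 3' as RNA on GRCm38, minus strand, with the 7 letters GCUUUGA in capitals and 11 nt of 3' UTR on each side.
Elavl1, bound, chr8:4288567-4288573: agucagauuuuGCUUUGAaauuuugcuuu
Elavl1, not listed, chr8:4287581-4287587: agggguccucuGCUUUGAgggugcagagu
Elavl1, not listed, chr8:4287190-4287196: agaagaaaguaGCUUUGAaaaggcauucc
Elavl1, not listed, chr8:4286827-4286833: auaccaaagagGCUUUGAcugaguucucu
Elavl2, not listed, chr4:91251304-91251310: ucuuugcaguuGCUUUGAguuuuauuuuu
Of the 29 letters, the bound stretch of Elavl1 held 15 U. The 3 copies without a listed window in Elavl1 held 6 to 9 U, and the copy in Elavl2 held 18 U. The 3' UTRs of Elavl3 and Elavl4 had no copy. Among 3' UTRs at least as long as that of Elavl1, 38.2% held the 7 letters in their first 4218 nt, the length of that of Elavl1.

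NSC-34 cells had RNA of all 4 genes. Library totals were 21296012 to 36284728 counts in RNA-Seq and POL-Seq, and 12986862 to 15751036 counts in 3' end sequencing. Of 10 neuron markers, 8 reached a mean of 1 CPM (the count scaled to a common library total), with Prph at 1183 CPM. Of 5 motor neuron markers, 3 did so, and Mnx1 was not in the table. Summed neuron markers ranged from 2546 to 2727 CPM in TOT CTRL and from 2639 to 2736 CPM in TOT HuD. None of the 4 microglial markers was in the table, and 1 of 4 astrocyte markers (Slc1a2), 2 of 4 oligodendrocyte markers and 1 of 4 fibroblast markers (Pdgfra) reached 1 CPM. Results in polysomal RNA depended on the POL CTRL libraries. With replicate 2 alone in that group 372 genes were called between HuD and CTRL, with replicate 1 alone 1 gene was called, and with both none. POL CTRL replicate 2 also had the lowest total count. Values without each of these libraries are given beside the results they move. The study describes the RNA-Seq and POL-Seq libraries as biological duplicates and the 3' end libraries as biological triplicates.

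Per length, Elavl1 had the highest level of the family in CTRL cells and Elavl2 by far the lowest. Counts were divided by the exon length of each gene to give FPKM (CPM per kilobase of exon), the scale on which genes can be compared. In total RNA of CTRL cells the level of Elavl1, the HuR gene, was 24.7 ± 2.08 FPKM (SD, n = 2). The level of Elavl3, the HuC gene, was 21.7 ± 1.71 FPKM (SD, n = 2). The libraries of these neighbours did not overlap, but the lowest of Elavl1, at 23.2 FPKM, was next to the highest of Elavl3, at 22.9 FPKM. The level of Elavl4, the HuD gene, was 16.3 ± 2.52 FPKM (SD, n = 2), with a range of 14.5 to 18.1. The level of Elavl2, the HuB gene, was 3.07 ± 0.22 FPKM (SD, n = 2), below every library of the other members. In polysomal RNA of CTRL cells the order of the means was the same, but the libraries of Elavl3 (20.9 to 22.8 FPKM) and Elavl4 (16.8 to 22.0 FPKM) overlapped. In HuD cells Elavl4 had the highest FPKM of the family, at 41.6 ± 3.27 FPKM (SD, n = 2) in total RNA and 43.5 ± 2.28 FPKM (SD, n = 2) in polysomal RNA. Any transgene reads come from a coding sequence, but were divided by the mouse exon length of Elavl4, 5387 nt. The FPKM of Elavl4 in HuD cells is therefore not on the same scale as in CTRL cells or for the other members.

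The share of Elavl4 in the summed FPKM of the family was likewise higher in HuD libraries. In total RNA of CTRL cells the share was 23.7% in replicate 1 and 25.7% in replicate 2. In total RNA of HuD cells it was 48.5% and 46.2%. In polysomal RNA it was 25.7% and 28.0% in CTRL cells and 47.6% and 45.1% in HuD cells. The groups did not overlap in either fraction. The same limit of gene length holds for all shares and for the summed level of the family in HuD cells. In bulk RNA, a change in the number of cells with a transcript and a change in its level per cell cannot be told apart. The summed level of the family was 65.8 ± 6.53 FPKM (SD, n = 2) in TOT CTRL and 87.9 ± 3.89 FPKM (SD, n = 2) in TOT HuD. The share of Elavl1 in total RNA went from 37.6% ± 0.57 (SD, n = 2) in CTRL to 26.9% ± 0.88 (SD, n = 2) in HuD cells, while its own level differed by less than the replicate spread.

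**Figure D1:**
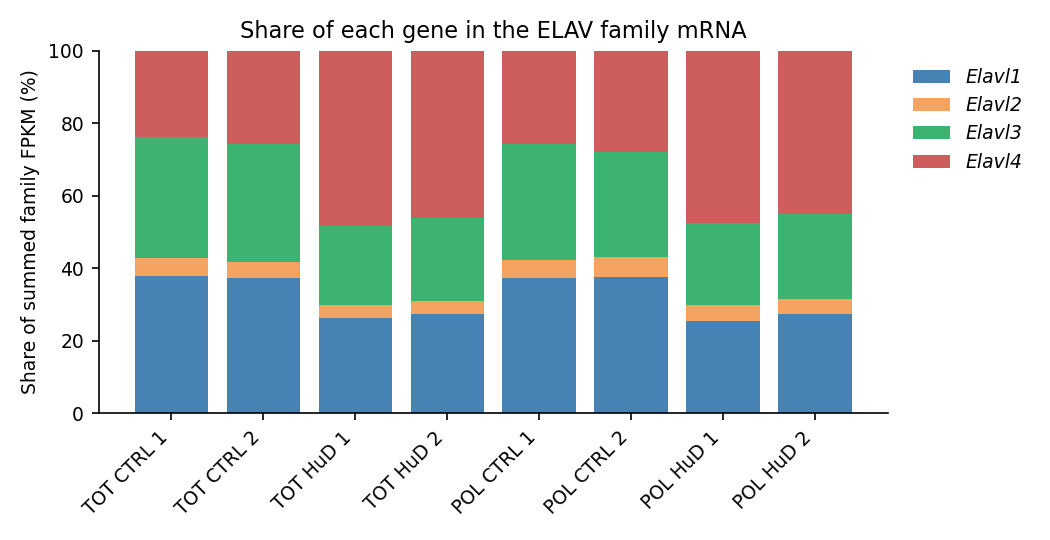
Share of each gene in the summed FPKM of the 4 ELAV genes (y axis, percent) in each of the 8 RNA-Seq (TOT) and POL-Seq (POL) libraries (x axis, group and replicate number). The Elavl4 part of each bar spans 23.7% to 28.0% in the CTRL libraries and 45.1% to 48.5% in the HuD libraries.

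Elavl4 had the largest difference of the family between HuD and CTRL cells in RNA-Seq and POL-Seq, and its call depended on the fit. In total RNA, Elavl4 was at 78.3 and 97.4 CPM in the CTRL libraries and at 237 and 212 CPM in the HuD libraries. In polysomal RNA it was at 90.3 and 118 CPM in CTRL and at 243 and 225 CPM in HuD. Both HuD libraries lay above both CTRL libraries in each fraction. The log2 change was 1.35 (SE 0.15) in total RNA and 1.17 (SE 0.15) in polysomal RNA. By edgeR's quasi-likelihood test over all 8 libraries, with Benjamini-Hochberg adjustment, neither change passed an adjusted p of 0.05, with adjusted p = 0.0866 and 0.282. In both fractions Elavl4 ranked number 1 by p among the 14906 genes tested, and 41 and 37 by log2 change. Of these genes, 0% were called in total RNA and 0% in polysomal RNA, and 2.64% and 4.17% had an unadjusted p under 0.05 (265 higher and 129 lower in total RNA, 341 and 281 in polysomal RNA). DESeq2 called Elavl4 in both fractions, with adjusted p = 3.73e-16 and 3.25e-11, and called 1 gene in total RNA and 3 in polysomal RNA. With the 4 total RNA libraries alone edgeR gave adjusted p = 0.000671, and with the 4 polysomal libraries alone 0.385. Without POL CTRL replicate 1 the adjusted p was 0.00268 in total RNA and 0.0125 in polysomal RNA, where the log2 change was 0.98. Without POL CTRL replicate 2 these values were 0.00180 and 0.0155, with a log2 change of 1.38 in polysomal RNA.

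**Figure D2:**
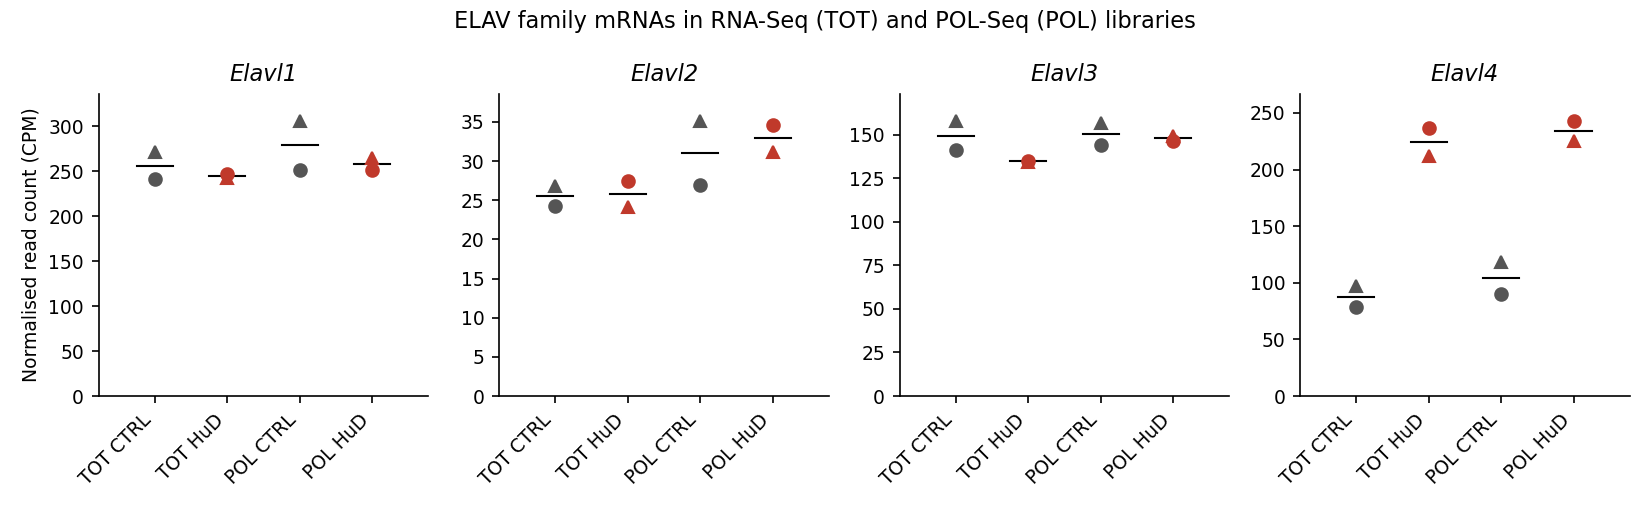
Normalised read counts of the 4 ELAV genes (y axis, CPM) in RNA-Seq (TOT) and POL-Seq (POL) libraries of CTRL cells (grey) and HuD cells (red), with circles for replicate 1, triangles for replicate 2 and a line for the mean. Elavl4 sits at 78.3 to 118 CPM in the CTRL libraries and at 212 to 243 CPM in the HuD libraries, while for Elavl1 and Elavl2 the HuD and CTRL libraries overlap in both fractions.

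The other members showed no change that passed the test. Elavl1 was at 241 and 271 CPM in TOT CTRL and at 247 and 243 CPM in TOT HuD, so that the HuD libraries lay between the CTRL libraries. Its log2 change was -0.07 (SE 0.11) in total RNA and -0.11 (SE 0.11) in polysomal RNA. Elavl2 was at 24.2 and 26.8 CPM in TOT CTRL and at 27.5 and 24.1 CPM in TOT HuD, with log2 changes of 0.02 (SE 0.14) in total and 0.09 (SE 0.14) in polysomal RNA. Elavl3 was at 141 and 158 CPM in TOT CTRL and at 135 and 135 CPM in TOT HuD. Both HuD libraries of Elavl3 lay below both CTRL libraries in total RNA, with a log2 change of -0.15 (SE 0.09, unadjusted p = 0.122 and adjusted p = 1.00 by edgeR). In polysomal RNA the log2 change of Elavl3 was -0.02 (SE 0.09). In polysomal RNA, Elavl1 was at 251 and 306 CPM in CTRL and 251 and 264 in HuD libraries. Elavl2 was at 26.9 and 35.1 CPM in CTRL and 34.7 and 31.1 in HuD libraries. Elavl3 was at 144 and 157 CPM in CTRL and 147 and 150 in HuD libraries, so that in this fraction the groups overlapped for all of these members. Without POL CTRL replicate 1 the log2 changes in polysomal RNA were -0.25 for Elavl1 (unadjusted p = 0.0253 and adjusted p = 0.167 by edgeR), -0.094 for Elavl2 and -0.084 for Elavl3. With replicate 2 left out they were 0.042, 0.30 and 0.043. With all libraries, the adjusted p of Elavl1, Elavl2 and Elavl3 was above 0.9 in both fractions.

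Translation efficiency (TE) is the level in polysomal RNA relative to total RNA. Its change with HuD was tested as an interaction term (fraction by HuD or CTRL). Ratios of polysomal to total CPM were taken between libraries of the same replicate number. The labels give only that number, and 2 replicates per group cannot show pairing. The ratio of Elavl4 was 1.15 and 1.21 in CTRL cells and 1.03 and 1.06 in HuD cells. With this pairing, both HuD ratios lay below both CTRL ratios. The log2 change, fitted without pairing, was -0.18 (SE 0.20, adjusted p = 1.00 by edgeR). It was -0.37 without POL CTRL replicate 1 (unadjusted p = 0.0527 by edgeR) and 0.027 without POL CTRL replicate 2. The ratios of Elavl3 lay the other way, at 1.02 and 0.99 in CTRL and 1.08 and 1.11 in HuD cells. Its log2 change was 0.12 (SE 0.12). For both genes the separation of the ratios rests on pairing by number. For Elavl1 and Elavl2 the ratios of HuD and CTRL cells overlapped, and the log2 changes were -0.05 (SE 0.15) and 0.07 (SE 0.19). Without POL CTRL replicate 1 these were -0.18 and -0.11, and without POL CTRL replicate 2 they were 0.10 and 0.28. No family member passed the test, and 0% of the 14906 genes did. At an unadjusted p under 0.05, 0.979% of genes were found, none of them a family member. In CTRL cells no member differed between fractions beyond the test. The log2 difference of POL over TOT was 0.12 for Elavl1, 0.28 for Elavl2, 0.01 for Elavl3 and 0.25 for Elavl4. In this comparison 0.174% of genes were called and 10.7% had an unadjusted p under 0.05. Without POL CTRL replicate 1, the value of Elavl1 was 0.26 (adjusted p = 0.0930 by edgeR), that of Elavl2 0.46 (adjusted p = 0.0369) and that of Elavl4 0.43 (adjusted p = 0.0515). With replicate 2 of POL CTRL left out, these values were -0.034, 0.072 and 0.033 (adjusted p = 0.993, 0.987 and 0.994).

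The 3' end libraries counted reads that start within 10 nt of a known mouse polyadenylation site, so an end that is not in the annotation is not counted. Elavl1 and Elavl3 had 1 listed end each, and Elavl2 and Elavl4 had 2. All lie on the minus strand of GRCm38. The end of Elavl1 is at position 4284782 of chromosome 8 and that of Elavl3 at 22015005 of chromosome 9. The ends of Elavl2, at 91250763 and 91250769 of chromosome 4, are 6 nt apart, and those of Elavl4, at 110203722 and 110203737 of chromosome 4, are 15 nt apart. Ends this near fall within the reach of the same reads. The ends of Elavl2, Elavl3 and Elavl4 that are also ends of vM21 transcripts had the polyadenylation signal AAUAAA in the 40 nt before the end, starting 19 to 40 nt before it. Of 12847 such ends in the table, 66.7% had AAUAAA there.

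HuD libraries held fewer 3' end counts of Elavl4 than CTRL libraries, opposite in sign to its counts in RNA-Seq and POL-Seq. The main end of Elavl4, 110203737, had 1184, 505 and 1192 counts in CTRL and 706, 446 and 756 counts in HuD libraries. The end 15 nt downstream had 54, 24 and 38 counts in CTRL and 29, 12 and 33 in HuD libraries. Over both ends, Elavl4 was at 78.1, 38.5 and 78.1 CPM in CTRL and at 54.6, 31.4 and 52.4 CPM in HuD replicates 1, 2 and 3. Each HuD library lay below the CTRL library of the same number, but the groups overlapped because CTRL replicate 2 was low. The log2 change was -0.49 (SE 0.29, -0.76 without CTRL replicate 2 and -0.28 without HuD replicate 2). Without a block for the replicate number it did not pass the test (adjusted p = 0.922 by edgeR). With the replicate number as a block the log2 change was -0.47 (SE 0.10) with adjusted p = 0.0306, and with ends within 20 nt merged as well it was -0.46 with adjusted p = 0.0269. Of the 9621 genes, 0.052% were called without the block and 2.26% with it, and 5.87% and 18.7% had an unadjusted p under 0.05. The listed ends are known mouse polyadenylation sites, while the transgene was cloned as a human coding sequence. How much of the Elavl4 count in RNA-Seq and POL-Seq came from the transgene was not tested.

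**Figure D3:**
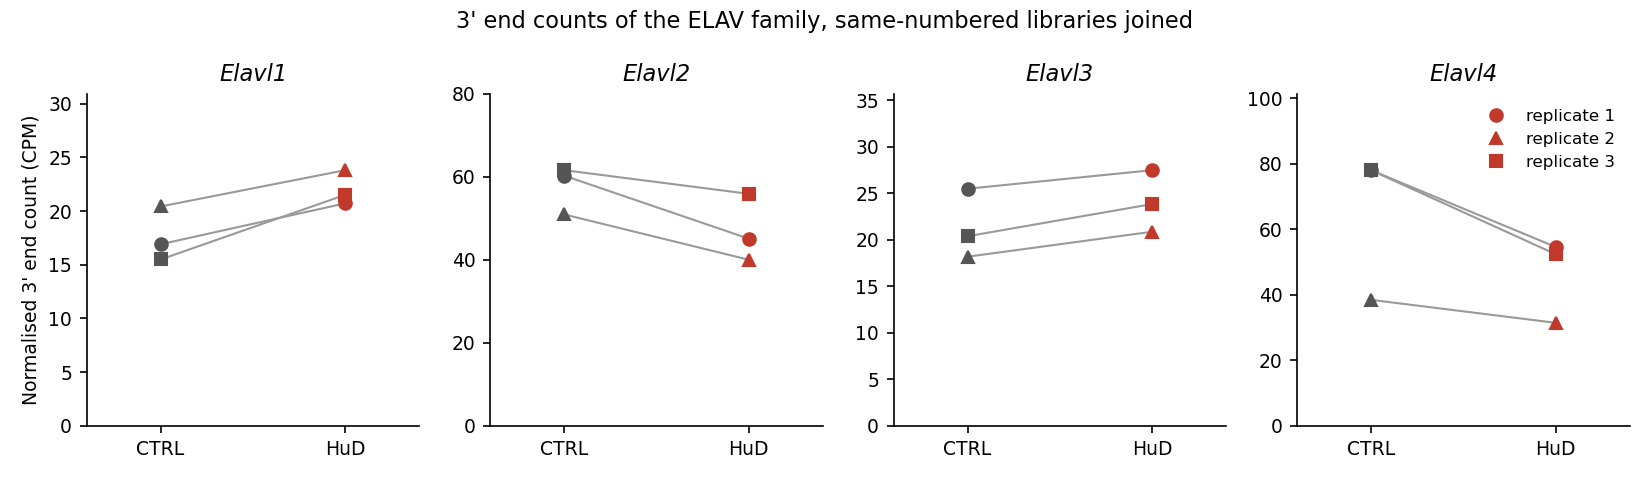
Normalised 3' end counts of the 4 ELAV genes (y axis, CPM, unique ends summed) in CTRL and HuD libraries, with a marker for each replicate number and a grey line that joins libraries of the same number. All 3 lines fall for Elavl2 and Elavl4 and rise for Elavl1 and Elavl3.

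The other members differed less. Elavl1 was at 16.9, 20.4 and 15.5 CPM in CTRL and at 20.7, 23.8 and 21.5 CPM in HuD libraries, and the groups did not overlap. Its log2 change was 0.32 (SE 0.16, adjusted p = 0.882 by edgeR, and 0.151 with the block). With its ends summed, which counts the same reads at both, Elavl2 was at 57.6 ± 5.82 CPM (SD, n = 3) in CTRL and 47.0 ± 8.12 CPM (SD, n = 3) in HuD libraries. With ends merged it was at 37.4 ± 3.71 CPM (SD, n = 3) and 30.6 ± 5.08 CPM (SD, n = 3). The summed counts had a log2 change of -0.29 (SE 0.16, adjusted p = 0.902, and 0.119 with the block). Elavl3 was at 21.3 ± 3.75 CPM (SD, n = 3) in CTRL and 24.1 ± 3.32 CPM (SD, n = 3) in HuD libraries, with a log2 change of 0.17 (SE 0.18, adjusted p = 0.985, and 0.406 with the block). In the same-numbered pairs, all 3 log2 differences were positive for Elavl1 and Elavl3 and negative for Elavl2 and Elavl4.

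The listed ends of each gene are too near each other to measure a choice between them. Both ends of Elavl2 are within 10 nt of the same reads, and the ends of Elavl4 share part of their reads. The main end of Elavl4 held 95.5% to 96.9% of its counts in CTRL and 95.8% to 97.4% in HuD libraries. The end of Elavl2 at 91250763 held 50.4% to 50.8% in CTRL and 50.6% to 51.3% in HuD libraries. By edgeR's diffSpliceDGE with Simes' method, 0.0301% of the 3317 genes with at least 2 ends were called, and the adjusted p of 1.00 for both members says nothing on end choice. When ends within 20 nt were merged, neither gene kept more than 1 end.

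**Figure D4:**
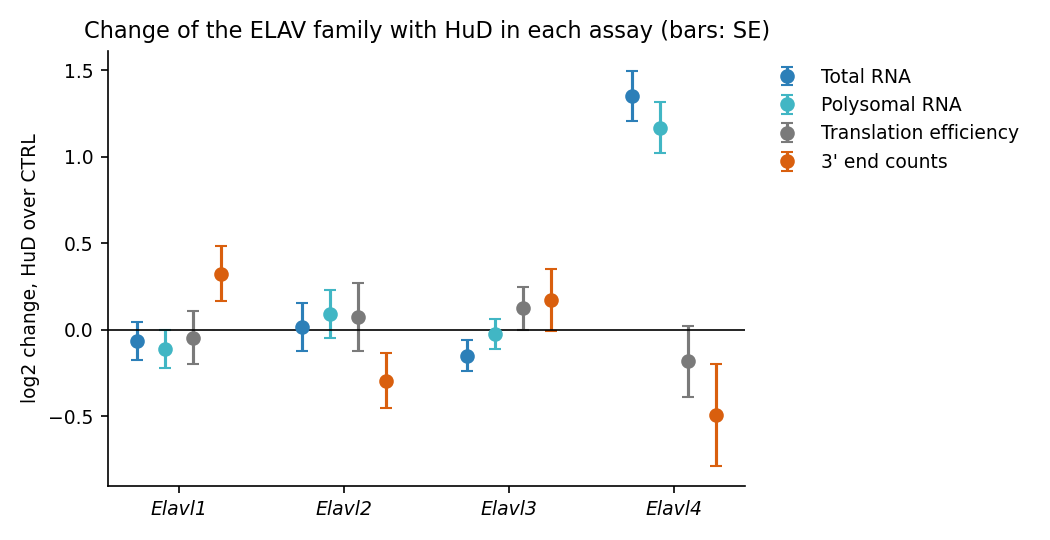
log2 change of HuD over CTRL (y axis) for each ELAV gene in total RNA, polysomal RNA, translation efficiency and 3' end counts, with points for the fitted value and bars for its SE. Elavl4 is at 1.35 and 1.17 in the first pair of assays and at -0.49 in 3' end counts.

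In CRAC, which pulls down tagged HuD crosslinked to RNA and reads the crosslink as a deletion, the family had a single binding window. The authors pooled the 3 HuD and the 3 CTRL libraries, so values have no replicate error and no test, and the depth of a library is unknown. The window in Elavl1 was covered by 20 reads, 3 of them with a deletion, in HuD cells and by 0 reads in CTRL cells. It lies 1027 nt after the stop codon in a 3' UTR of 4218 nt, on chromosome 8. Its authors' p-value was 0.301, so it is not among the 542 protein coding windows with a p-value under 0.05, and its score against the authors' weight matrix was 0.85, where the median window had 0.9. The 3 deletions are the lowest number listed, shared by 31.3% of protein coding windows.

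Elavl1 was covered less than the median bound gene. Its 20 reads ranked 754 among 1299 genes after each window was assigned to 1 gene, where the median gene had 27. Coverage over CPM was 0.0781 for Elavl1 against a median of 0.287 over 1279 bound genes. The letters GCUUUGA were listed in 13 windows of 13 genes, with coverage from 8 to 83 and a median of 20. C stood before UUU in 40.9% of the 7-nt windows with UUU.

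**Figure D5:**
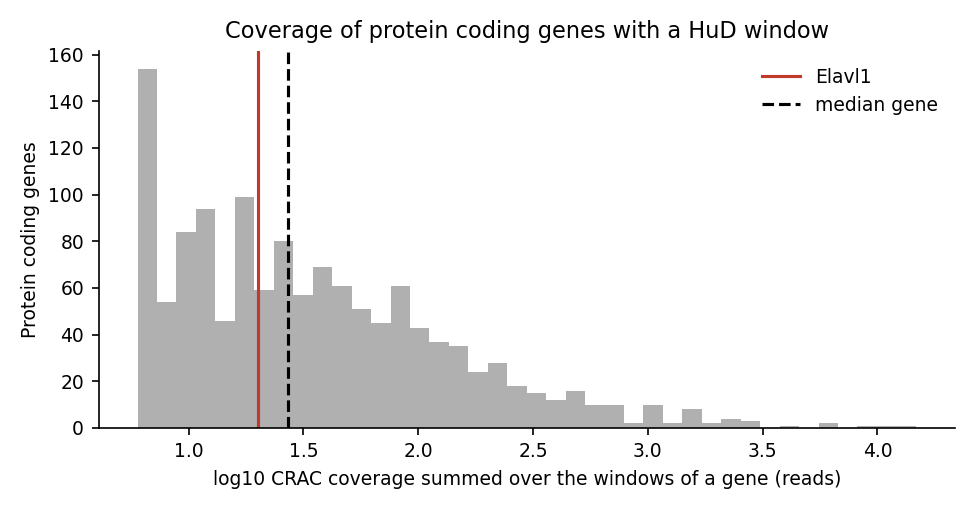
Distribution of CRAC coverage over protein coding genes with a HuD window (x axis, log10 of the reads summed over the windows of a gene, y axis, number of genes). The solid line marks Elavl1 at 20 reads and the dashed line the median gene at 27 reads.

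Elavl2, Elavl3 and Elavl4 had no listed window. A window needed at least 6 reads and 3 deletions to be listed, so a weaker signal would not show. The study also required a score in its weight matrix above a threshold, and penalized positions with control reads. A strong signal on other letters would therefore not show either. Of the 12947 protein coding genes with RNA-Seq counts, 9.90% had a window. Among those within 2-fold of the CPM of a member in total RNA of CTRL cells, the share was 26.4% for Elavl1, 5.60% for Elavl2, 19.9% for Elavl3 and 14.6% for Elavl4. The members without a window differed in their density of core letters. CUUU, AUUU and GUUU together occurred 44.4 times per kb in the 3' UTR of Elavl2, 34.9 in Elavl4, 34.4 in Elavl1 and 16.0 in Elavl3. The median was 20.7 over all 3' UTRs and 28.6 over those of genes with a window. Windows were listed partly by their letters, so the difference between these medians is not separate from the listing. A match is a description of letters and not a site.

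No listed partner or regulator of ELAV proteins was called with HuD, in comparisons where almost no gene was called. Of the list's 19 genes, 18 were measured in RNA-Seq and 17 in 3' end sequencing. Of these genes, which are nuclear transport factors, modifying enzymes and binding partners, 0 passed the test in total or polysomal RNA, in TE or in 3' ends. The 3' end counts of the list were fitted only without the replicate block. Of all genes, 0% passed in total RNA, polysomal RNA and TE, and 0.052% in 3' ends. At an unadjusted p under 0.05 by edgeR, 3 of the list were lower and 0 higher in polysomal RNA (4.17% of all genes). In total RNA 1 was lower and 0 higher (2.64% of all genes). The median log2 change was -0.07 in total and -0.13 in polysomal RNA, against -0.00 and -0.01 over all genes. Smn1, the survival motor neuron gene, had the smallest p in both, at -0.21 (unadjusted p = 0.0232 in total RNA by edgeR) and -0.22 (unadjusted p = 0.0178 in polysomal RNA). In CTRL cells 1 gene was called between fractions: Pabpc1, the cytoplasmic poly(A)-binding protein, was lower in polysomal than in total RNA by a log2 difference of -0.68 (SE 0.10, adjusted p = 0.0472 by edgeR), where 0.174% of all genes were called. Without 1 library the log2 difference was -0.62 to -0.73, and the call held only without POL CTRL replicate 1 (adjusted p = 0.00541), with adjusted p = 0.0571 to 0.477 without any of the other libraries. In CRAC, 7 of the 19 genes had a window, against 9.90% of protein coding genes with RNA-Seq counts. Among them were Pabpc1 with 298 reads, Eif4a1 (146), Tnpo1 (91) and Set (68). The share with a window depended on level, with 5.60% of genes within 2-fold of the CPM of Elavl2 and 26.4% for Elavl1. The 9.90% is not matched for level, so the difference from it is not a result about the list.

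The 14 listed proteins that bind the same U-rich and AU-rich elements did not pass the test in any comparison. Their 3' end counts, too, were fitted only without the replicate block. Of all genes, 0% passed in total RNA, polysomal RNA and TE, 0.052% in 3' end counts and 0.174% between fractions. All 14 were measured in RNA-Seq and 12 in 3' end sequencing, with a median log2 change of -0.07 in total RNA, -0.06 in polysomal RNA and -0.17 in 3' end counts, against 0.00 over all genes in the last. Ptbp1, a repressor of neuronal splicing, had -0.17 in both fractions (SE 0.09), and Rc3h1, an RNA decay factor, had 0.17 and 0.19. In CRAC, 6 of the 14 had a window, against the same 9.90%, which is not matched for level. Pcbp2 led with 4231 reads over 14 windows, followed by Hnrnpc with 294 over 6 and Zfp36l2 with 158 over 3. Celf1, Zfp36 and Msi1 had 8 to 9 reads.

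Of 30 mRNAs known as ELAV targets, 29 were measured in RNA-Seq and 27 in 3' end sequencing, and 0 passed the test with HuD. For 3' ends this is again the fit without the replicate block. Of all genes, 0% passed in total RNA, polysomal RNA and TE, and 0.052% in 3' ends. In polysomal RNA, 5 of the list were higher and 1 lower at an unadjusted p under 0.05, where 4.17% of all genes had such a p. Marcks, a protein kinase C substrate, had 0.52 (SE 0.10), Mapt, which encodes tau, 0.36 (SE 0.08) and Cdkn1a, a cell cycle inhibitor, 0.40 (SE 0.10). In total RNA, Mapt had 0.30 (SE 0.08) and Vegfa, a growth factor gene, 0.32 (SE 0.10). In TE, Marcks had 0.52 (SE 0.14, unadjusted p = 0.00532 and adjusted p = 1.00 by edgeR). In 3' end counts, Mycn had 0.35 (SE 0.13), Ache 0.50 (SE 0.19) and Bcl2 0.52 (SE 0.20). The median log2 change of the list was -0.01 in total, 0.05 in polysomal RNA and -0.12 in 3' ends. In CRAC, 12 of the 30 had a window, against 9.90% of protein coding genes, a share not matched for level. There were 1558 reads over 11 windows on Ptma, 217 on Actb, 132 on Marcks and 125 on Hif1a.

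The genes nearest each member over the 8 RNA-Seq and POL-Seq libraries are given as a description. They are the highest of 9702 genes over 8 libraries, so their rank above the other family members says nothing on the family. The measure was Pearson r of log2 CPM among 9702 genes with a mean of at least 10 CPM, which share libraries and group structure. The nearest genes were Cep85 (0.99), Podxl (0.98) and Pwp1 (0.98) for Elavl1, and included Rnmt (0.98) and Erap1 (0.98) for Elavl2. They were Psmd3, Ret and Mdh2 (0.96 each) for Elavl3, and Trim66 (0.99), Sv2a (0.97) and Rimkla (0.97) for Elavl4. Within the family, r was 0.83 for Elavl1 with Elavl3 and 0.66 for Elavl1 with Elavl2, and between -0.37 and 0.34 for Elavl4 with the others. Trim66 had a log2 change with HuD of 0.43 (SE 0.08) in total and 0.41 (SE 0.08) in polysomal RNA, and -0.05 (SE 0.26) in 3' end counts. Trim66 was picked by its r with Elavl4 over the same RNA-Seq and POL-Seq libraries, so its change there is not separate evidence.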

How the data were processed

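For RNA-Seq and POL-Seq, the deposited table holds unnormalised read counts by gene (STAR 2.5.3a on GRCm38 with Gencode M6), and for 3' ends the deposited table holds read counts by end and transcript. For CRAC (TopHat2 2.0.14) the authors deposited for each window of pooled libraries the coverage as a signal in reads, the count of reads with a deletion, an unadjusted p-value that draws on both, and the score of its letters in a weight matrix. Lines for the same 3' end or window were reduced to 1, and 18 of 18577 3' end lines differed from the first line of their end and the highest count was used. Window positions are those of the listed letters in GENCODE vM21 transcripts. Tests used edgeR 4.0.16 under R 4.3.3 (TMM, filterByExpr, quasi-likelihood, adjusted p under 0.05 over all genes), in 1 fit to the 8 RNA-Seq and POL-Seq libraries and 1 to the 6 3' end libraries, with DESeq2 1.42.0 as an alternative. Benjamini-Hochberg adjustment was used throughout. FPKM was computed here from the deposited counts with vM21 exon lengths, and log2 CPM used a prior count of 2. CRAC values and figures were computed in Python 3.11.15 with pandas 2.3.3 and matplotlib 3.10.9. Procedures were tested on simulated data with 200 genes changed at once. In total RNA, 99.5% of these were called at a 2.5-fold change and 54.5% at 1.5-fold. In 3' end counts, 5.5% were called at 1.5-fold. With so many genes changed, these shares do not give the power to call a lone changed gene.

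Same-numbered 3' end libraries deviated together from their group means in all 3 pairs (r = 0.40, 0.66 and 0.52), so the replicate number was taken to pair them. The main 3' end fit left this pairing out, and for the members the fit with the block is given beside it. The lists were tested in 3' ends only without the block, where 0.052% of all genes were called, against 2.26% with it. The labels give only the number. Genes named are the 4 members, the 3 genes most like each, and from 3 lists the genes past the test or up to 3 with the smallest p per comparison. The result for 1 of the genes under this rule is not reported here. Members and lists were chosen with earlier results of these data known. In CRAC, genes were named by coverage, a choice made after their values were seen. Alternatives changed the normalization, filter, test, block, libraries, merging of ends and windows, and gene length, and the fit with merged ends and block was chosen after seeing the data.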

Additional observations from a re-analysis of the deposited data

Results flagged for a closer look

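In 3 members every HuD library lay on one side of the CTRL mean in RNA-Seq or POL-Seq and on the other in 3' end sequencing, and the difference between the assays was not tested. For Elavl4 the log2 change was 1.35 in total RNA, 1.17 in polysomal RNA and -0.49 in 3' end counts. For Elavl1 it was -0.067 in total RNA, -0.11 in polysomal RNA and 0.32 in 3' end counts. For Elavl2 it was 0.090 in polysomal RNA and -0.29 in 3' end counts. POL HuD replicate 2 of Elavl2, at 31.12 CPM, lay next to the POL CTRL mean of 31.02 CPM. Without POL CTRL replicate 1 the log2 change of Elavl2 in polysomal RNA was -0.094. That of Elavl1 turned sign as well, to 0.042 without POL CTRL replicate 2. By edgeR with all libraries and no block, none of these changes passed the test. Those of Elavl4 passed in some of the alternative fits given below, and those of Elavl1 and Elavl2 in none.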

How the results depend on the processing

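Elavl4 was called in total RNA by DESeq2 (log2 change 1.36) and with the 4 libraries compared alone (1.36), in polysomal RNA by DESeq2 (1.17), and in 3' end counts with the replicate block (-0.47) and with merged ends and block (-0.46). In RNA-Seq and POL-Seq, where 2 replicates per group cannot show pairing (r of the deviations 0.19 to 0.39), the block changed no call of a member (Elavl4 adjusted p = 0.0788 in total and 0.0786 in polysomal RNA by edgeR). Leaving out each library in turn gave log2 changes of 1.20 to 1.52 for Elavl4 in total RNA, 0.98 to 1.38 in polysomal RNA, -0.37 to 0.027 in TE and 0.033 to 0.43 for POL over TOT. For Elavl1 the ranges were -0.15 to 0.022 in total RNA, -0.25 to 0.042 in polysomal RNA, -0.18 to 0.10 in TE and -0.034 to 0.26 for POL over TOT. For Elavl2 they were -0.079 to 0.11, -0.094 to 0.30, -0.11 to 0.28 and 0.072 to 0.46, for Elavl3 -0.23 to -0.066 in total RNA, 0.042 to 0.20 in TE, -0.084 to 0.043 in polysomal RNA and -0.068 to 0.093 for POL over TOT. In 3' end counts they were 0.24 to 0.44, -0.44 to -0.19, 0.066 to 0.32 and -0.76 to -0.28 for Elavl1 to Elavl4. A lone library left in a group was assumed to vary like the others.

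The number of genes called went to 1 in total RNA by DESeq2 and with 4 libraries, to 3 in polysomal RNA and to 67 between fractions by DESeq2, and to 41 between fractions with the replicate block. For 3' end counts it was 35 by DESeq2, 217 with the replicate block and 251 with merged ends and block, and for usage 0 with merged ends. Leaving out libraries gave 0 to 1 called in total RNA, 0 to 372 in polysomal RNA, 0 to 47 in TE, 0 to 2145 between fractions, 2 to 14 in 3' end counts and 0 to 1 in usage. The highest numbers in polysomal RNA, TE and between fractions came without POL CTRL replicate 1. The cause was not tested. With the longest transcript as length, levels in TOT CTRL were 44.6, 6.08, 29.8 and 21.2 FPKM for Elavl1 to Elavl4, in the same order, and the share of Elavl4 was 20.8% in TOT CTRL and 41.6% in TOT HuD. Restricted to windows with a p-value under 0.05, CRAC had 0 windows on the family.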
